A study of Sus scrofa with 31 samples.

Results

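RGS1 and MCOLN2 were followed through 31 RNA sequencing samples of pig microglia, alveolar macrophages and hippocampal tissue. These are 2 of 31907 genes in the count table. They were selected on their large excess in hippocampal microglia over hippocampal tissue, so that excess is described here without a test. The tests of these genes concern other comparisons. Those that include hippocampal microglia share these samples with the selection, and those without them do not. The samples came from 15 crossbred male piglets of about weaning age (Large White × Landrace sows, Duroc sires), 1 per litter, counted by the tags in the sample names and reared in standard farrowing housing or in pens with more freedom of movement. That is not the number of animals given in the study's methods, and pigs were matched by tag. The housing of each sample was not analysed here. Every piglet had been sedated and held under isoflurane anesthesia for imaging before tissue was taken. Microglia were sorted as CD11b-high, CD45-low cells from Dounce-dissociated cerebellum, frontal cortex and hippocampus (n = 8 samples per region), and alveolar macrophages as F4/80+, CD163-low cells from lung lavage (n = 3). Hippocampal tissue was preserved whole without dissociation or sorting (n = 4), with a different RNA extraction, so that cell type, dissociation and extraction cannot be told apart in that comparison.

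RGS1 belongs to the regulators of G protein signaling, which speed up GTP hydrolysis by G alpha subunits of the Gi and Gq classes and so shorten the signal from chemokine and other G protein-coupled receptors. It is best known from lymphocytes, where it dampens migration toward chemokines. MCOLN2 (mucolipin 2, TRPML2) is a cation channel of recycling endosomes and lysosomes that is opened by the lipid PI(3,5)P2, and it is known for its expression in immune cells and its link to chemokine release from macrophages. MCOLN1, its widely expressed paralog, is the main calcium release channel of lysosomes.

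Both genes have RefSeq models on the assembly that the study aligned to, Sscrofa11.1. RGS1 lies on chromosome 10, from 1147439 to 1151733 on the minus strand, with up to 5 exons and 1619 exonic bases. It stands in a group of RGS genes, with RGS13 at 65.0 kb, RGS21 at 190.0 kb, RGS2 at 207 kb and RGS18 at 369 kb. MCOLN2 lies on chromosome 6, from 128772904 to 128836958 on the plus strand, with up to 15 exons and 7082 exonic bases, of which 1701 are coding. The 250 bases before each annotated gene start are shown because both genes stood far higher in microglia than in tissue. They lie at chr10:1151734-1151983 for RGS1 (minus strand) and at chr6:128772654-128772903 for MCOLN2 (plus strand), and capitals mark matches to the motifs named in the next paragraph.
RGS1: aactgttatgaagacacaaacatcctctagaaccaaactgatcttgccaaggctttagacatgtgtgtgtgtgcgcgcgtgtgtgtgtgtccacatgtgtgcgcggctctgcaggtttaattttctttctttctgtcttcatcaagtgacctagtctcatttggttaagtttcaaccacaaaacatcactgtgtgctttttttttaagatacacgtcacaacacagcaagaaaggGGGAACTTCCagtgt
MCOLN2: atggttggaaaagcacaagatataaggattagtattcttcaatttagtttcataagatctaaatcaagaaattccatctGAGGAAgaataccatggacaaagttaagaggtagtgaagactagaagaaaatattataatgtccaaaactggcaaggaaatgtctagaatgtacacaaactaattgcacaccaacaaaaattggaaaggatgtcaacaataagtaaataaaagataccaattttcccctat

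The letters GAGGAA, the core bound by the myeloid factor PU.1, were searched on both strands and occurred once before MCOLN2, beginning 171 bases before the start, and not before RGS1. They occur in 22% of the 19556 windows of the same length before protein-coding genes. Neither window held TGANTCA, an AP-1 site, or CACGTG, the E-box read by the TFEB family, which occur in 5.27% and 6.39% of windows. The NF-κB consensus of 10 letters, added after the sequence had been seen, was searched on the gene's strand only. It occurred once before RGS1, beginning 15 bases before the start, and in 9.95% of all windows. The matches are letters only, and MCOLN2 has 7 annotated transcripts whose use in these cells was not measured.

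Library totals ranged from 18438494 to 43477403 counts. At these depths the floor of 3 counts lay between 0.0656 and 0.15 CPM (counts scaled to a common library total, with TMM factors of 0.826 to 1.16), and it covers counting error only. All 6 microglia markers were higher in microglia than in either comparator, beside 12.8% (macrophages) and 11.7% (tissue) of all genes tested. Their summed level was 3500 to 7620 CPM in microglia, 128 to 291 CPM in alveolar macrophages and 175 to 266 CPM in tissue. Of 5 alveolar macrophage markers, 2 could be tested. PPARG was lower in cerebellar and frontal cortex microglia (−2.25 ± 0.55 SE on the log2 scale), and SIGLEC1 was lower by less than 3-fold (−1.22 ± 0.39). FABP4 had no count in the macrophages, and MARCO had none in any group and so does not bear on the label. MSR1, below the filter, was at 8.63 ± 2.76 CPM in macrophages (SD, n = 3). Its means were 3.71, 6.83 and 12.7 CPM in cerebellar, frontal cortex and hippocampal microglia, so the highest mean was not in macrophages. The summed level of the list was 65.6 to 112 CPM in macrophages and 10.5 to 59.9 CPM in microglia. CD163, whose protein was low in the sort gate, was at 411 ± 154 CPM in the macrophages (SD, n = 3). Of 12 lymphoid markers, 11 were lower in cerebellar and frontal cortex microglia than in these macrophage libraries, beside 9.43% of all genes tested. Their summed level was 1070 to 1850 CPM in the macrophage libraries against 68.4 to 212 CPM in all microglia samples. Both members are also expressed by lymphocytes, and the part of lymphocyte RNA in the macrophage values was not tested.

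RGS1 was a gene of high level in every sorted population and of low level in tissue. In cerebellar microglia it ran from 106 to 302 CPM with a median of 235 CPM, a mean of 219 ± 74.2 CPM (SD, n = 8). In frontal cortex microglia the lowest sample had 92.7 CPM, the median was 194 CPM and the highest had 462 CPM (216 ± 112 CPM, SD, n = 8). In hippocampal microglia the values were 112 CPM at the lowest, 160 CPM at the median and 438 CPM at the highest (206 ± 119 CPM, SD, n = 8). The 3 regions overlapped between 112 and 302 CPM, and the highest samples of frontal cortex and hippocampus lay above all cerebellar ones. The alveolar macrophages of pigs 12821, 12829 and 12984 had 131, 117 and 154 CPM (134 ± 18.7 CPM, SD, n = 3), inside the microglia range. In hippocampal tissue of pigs 12821, 12829, 12847 and 12872 RGS1 stood at 2.83, 2.27, 2.24 and 4.46 CPM (2.95 ± 1.04 CPM, SD, n = 4), from 71 to 145 counts, and no sorted sample came near these values.

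MCOLN2 was a gene of low to moderate level with another order of groups. Its lowest, median and highest values were 7.55, 14.4 and 22.1 CPM in cerebellar microglia (14.6 ± 5.48 CPM, SD, n = 8). The corresponding values were 10.2, 16.2 and 30.4 CPM in frontal cortex microglia (17.5 ± 6.8 CPM, SD, n = 8) and 12.2, 17.6 and 34.4 CPM in hippocampal microglia (19.8 ± 7.2 CPM, SD, n = 8). As for RGS1, the 3 regions overlapped. The macrophages of pigs 12821, 12829 and 12984 had 39.8, 28.9 and 44.9 CPM (37.8 ± 8.19 CPM, SD, n = 3), and the lowest of these was exceeded by 2 of 24 microglia samples, at 30.4 and 34.4 CPM, and the other two by none. The 4 tissue samples, in the pig order given for RGS1, had 0.377, 0.119, 0.189 and 0.707 CPM (0.348 ± 0.263 CPM, SD, n = 4). These rest on 4 to 23 counts, all above the floor and all below every sorted sample. The order of group means was thus macrophages, hippocampal, frontal cortex and cerebellar microglia and then tissue for MCOLN2, and cerebellar, frontal cortex and hippocampal microglia, macrophages and tissue for RGS1.

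**Figure D1:**
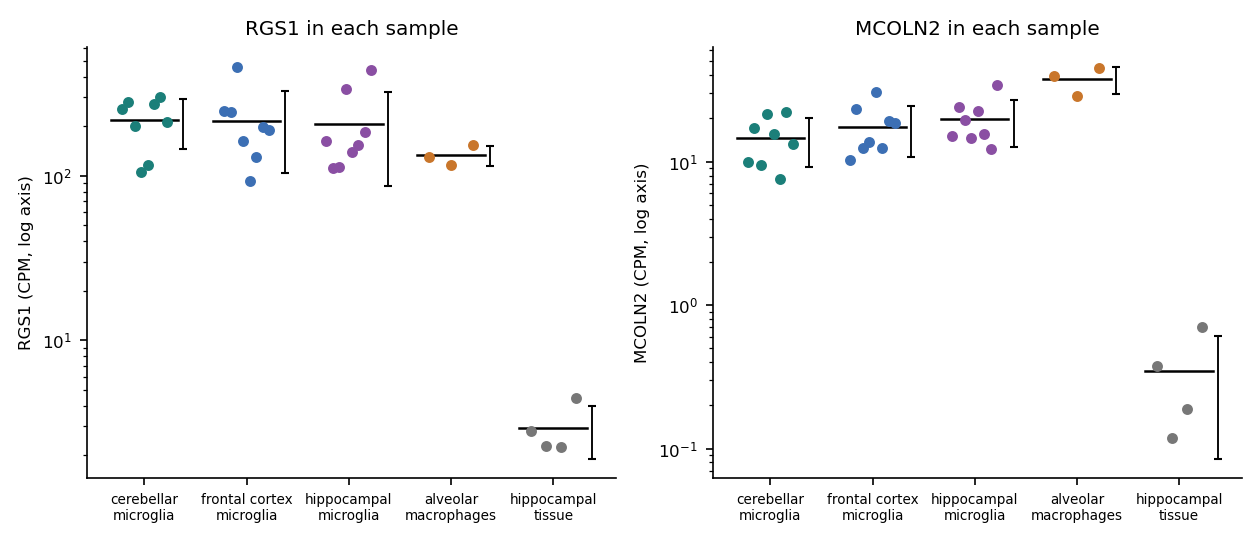
CPM of RGS1 (left) and MCOLN2 (right) on log axes, with 1 point per sample in each of the 5 groups; horizontal lines are group means and bars beside them are ± SD. For both genes the 4 tissue samples lie below every sorted sample, and the 3 macrophage samples lie within the microglia range for RGS1 (117 to 154 CPM) and at or above its upper end for MCOLN2 (28.9 to 44.9 CPM).

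In the comparison that selected them, hippocampal microglia exceeded hippocampal tissue by a fitted log2 fold change of 6.13 ± 0.53 (SE) for RGS1, or 69.8-fold, and of 5.81 ± 0.49 for MCOLN2, or 56.1-fold. They ranked next to each other, behind CCL8 at 6.56 and just ahead of TMEM156 at 5.78, among the 2973 genes with a symbol whose lowest microglia sample lay above the highest tissue sample. Over all 11633 genes tested, 11.7% were higher in microglia and 22.1% lower at an adjusted p under 0.01 and more than 4-fold. Fewer microglia in tissue and less RNA per microglial cell cannot be told apart in bulk samples.

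In each of the 4 pigs with both hippocampal samples the excess was large, but its size varied. For RGS1 the ratio of microglia to tissue was 49.6 in pig 12821, 68.6 in pig 12829, 83.1 in pig 12847 and 98.4 in pig 12872. For MCOLN2 it was 59.8, 132, 64.3 and 48.7 in the same order. Pig 12872 had the highest level of both genes in hippocampal microglia (438 and 34.4 CPM) and in tissue (4.46 and 0.707 CPM).

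The genes were also set against established microglial genes in the same libraries, as a description. For every 100 counts of CSF1R, the receptor that microglia need for survival, hippocampal microglia held 4.8 to 17.1 counts of RGS1 (median 6.13) and tissue held 3.3 to 6.31 (median 3.69). The corresponding numbers of MCOLN2 counts were 0.464 to 1.34 (median 0.747) in microglia and 0.174 to 1.0 (median 0.399) in tissue. Against CX3CR1, the fractalkine receptor, RGS1 had medians of 20.4 in microglia and 15.9 in tissue, and MCOLN2 had medians of 2.56 and 1.75. The medians were lower in tissue for both genes and for all 3 markers used, TMEM119 included, and the ranges of the 2 groups overlapped in all 6 cases. Within pigs, RGS1 per marker was higher in microglia than in tissue in 12 of 12 pairs (4 pigs by 3 markers) and MCOLN2 in 11 of 12, the exception being CX3CR1 in pig 12872 (4.2 against 4.91). These ratios share the comparison that selected the genes and carry no test.

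**Figure D2:**
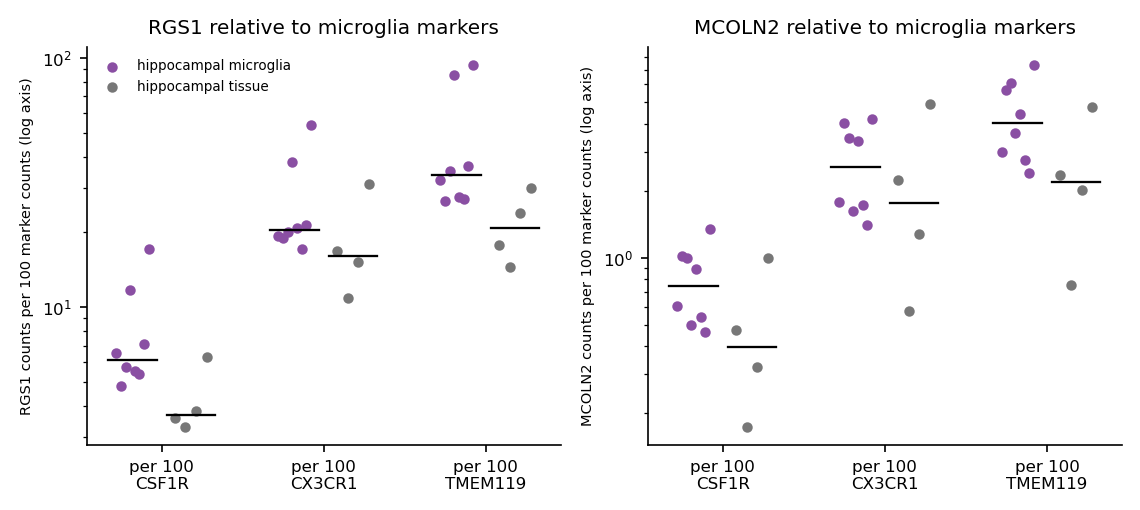
Counts of RGS1 (left) and MCOLN2 (right) per 100 counts of CSF1R, CX3CR1 and TMEM119 on log axes, with 1 point per hippocampal microglia sample (n = 8) or tissue sample (n = 4) and lines at the medians. In every pair the tissue median is the lower one (for CSF1R, 3.69 against 6.13 for RGS1 and 0.399 against 0.747 for MCOLN2), and the ranges overlap.

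The macrophage comparison, which did not enter the selection, separated the genes. It set the mean of cerebellar and frontal cortex microglia (16 samples, with both regions sampled in 6 pigs) against alveolar macrophages. RGS1 had a log2 fold change of 0.70 ± 0.40 (SE, 95% CI −0.13 to 1.52) and an adjusted p of 0.137 in edgeR, so a difference was not detected, and the interval ran from 0.916-fold to 2.87-fold. MCOLN2 was lower in microglia by a log2 fold change of −1.24 ± 0.33 (95% CI −1.91 to −0.58, adjusted p = 0.0018 in edgeR), or 2.37-fold, which passed the threshold on p and not the 3-fold threshold. At any fold, 23.1% of the genes tested were lower in microglia, and 12.8% were higher and 9.43% lower at more than 3-fold. These were 1492 and 1097 genes, and limma-voom turned the balance, with 1006 higher and 1332 lower. An exact permutation test of mean log2 CPM over the 969 regroupings gave p = 0.126 for RGS1 and p = 0.00206 for MCOLN2 (two-sided, smallest possible p 0.00103). Neither this edgeR fit nor the permutation test took account of samples from the same pig.

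The adjusted p under 0.01 for MCOLN2 rested on few macrophage libraries. Without the macrophages of pig 12984 its log2 fold change was −1.04 with an adjusted p of 0.0302 in edgeR, and without those of pig 12821 it was −1.21 with 0.012. Hippocampal microglia taken alone, whose samples entered the selection, differed by −0.94 (adjusted p = 0.0322 in edgeR), an alternative added after the data had been seen. Within pigs, MCOLN2 in macrophages was 2.55 times that in cerebellar microglia in pig 12821, 1.77 times that in its hippocampal microglia and 1.84 times that in the hippocampal microglia of pig 12829. RGS1 in hippocampal microglia was 1.07 and 1.33 times that in macrophages of those pigs, and in cerebellar microglia of pig 12821 it was 0.892 times. The macrophage library of pig 12984 had the lowest summed lymphoid markers (1070 CPM, against 1560 and 1850 CPM) and the highest RGS1 and MCOLN2 of the group.

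Among the RGS family, RGS1 was one of a small set with high levels in microglia. Per kilobase of exon, RGS10, known from microglia as a brake on inflammatory signaling, led in all 3 regions with 360 ± 84.1, 355 ± 69.0 and 404 ± 26.2 CPM per kb (cerebellum, frontal cortex, hippocampus). RGS1 was second of 18 measured family members with 135 ± 45.8, 133 ± 69.5 and 127 ± 73.2 CPM per kb, and RGS19, which acts on Gi-class subunits, followed with 31.6 ± 8.87, 31.3 ± 7.54 and 30.3 ± 3.86 CPM per kb (SD, n = 8 each). In alveolar macrophages RGS1 led the family with 82.7 ± 11.6 CPM per kb (SD, n = 3), ahead of RGS10 with 37.4 ± 7.76. In tissue it ranked 13 of 18 with 1.82 ± 0.644 CPM per kb (SD, n = 4), and RGS4, a neuronal member, led with 47.0 ± 17.5. The lengths are those of RefSeq exons, and the counting used the Ensembl models. The length of RGS19 joins 20 annotated transcripts to 5040 bases, against 1619 bases for RGS1. By CPM, RGS19 stood closer to RGS1, with microglia group means of 153 to 159 CPM against 206 to 219 CPM.

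The family split in the tissue comparison. Of all genes tested, 11.7% were higher in hippocampal microglia and 22.1% lower. Of the 15 members tested besides RGS1, 4 were higher in hippocampal microglia, 9 were lower and 2 did not pass, with a median log2 fold change of −3.65 beside −0.08 over all genes tested. The higher ones were RGS10 (5.53 ± 0.22 SE), RGS19 (4.24 ± 0.26), RGS18 (4.17 ± 0.72), a member of blood cells and platelets, and RGS9 (2.41 ± 0.26), known from photoreceptors and striatal neurons, with adjusted p from 1.59e-18 to 8.68e-06 in edgeR. The lower ones included RGS4 (−9.64 ± 1.31), RGS7 (−7.09) and RGS14 (−6.46 ± 0.71), all known from neurons, and RGS5 (−6.92), a pericyte gene. Those 9 were the members RGS4, RGS5, RGS6, RGS7, RGS8, RGS12, RGS14, RGS17 and RGS22. RGS2 and RGS16 did not pass, with 0.37 ± 0.35 and −1.50 ± 1.32. RGS11 was too low to be tested, at 1.32 ± 0.922 CPM in tissue (SD, n = 4) and 0.0702 ± 0.198 CPM in hippocampal microglia (n = 8), with no count in the other 3 groups.

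Against alveolar macrophages, 12.8% of all genes were higher in cerebellar and frontal cortex microglia and 9.43% lower. Of 16 RGS genes 1 was higher, 5 were lower and 10 were not called, RGS1 among them (median −0.30, beside 0.07 over all genes). RGS10 was the higher one, with 3.26 ± 0.22 (adjusted p = 2.24e-13 in edgeR). RGS14 (−6.37 ± 0.55), RGS4 (−6.21 ± 1.03), RGS16 (−5.21 ± 1.13), RGS22 (−4.85 ± 1.37) and RGS18 (−2.20 ± 0.50) were the lower ones, with adjusted p from 8.14e-11 to 0.0035. RGS9 and RGS19 had values of 1.43 and 0.65. The summed lymphoid markers moved with this comparison, as given above. RGS13, the nearest neighbour of RGS1 and a gene of B cells and mast cells, was below the filter, with 8.67 ± 1.37, 11.7 ± 6.09 and 11.6 ± 4.12 CPM in the 3 microglia groups (SD, n = 8), 0.801 ± 0.954 CPM in macrophages and 0.433 ± 0.151 CPM in tissue. The chromosome 10 neighbours RGS2 (12.8 to 18.4 CPM as microglia group means) and RGS18 (2.68 to 11.2 CPM) had lower levels than RGS1 in all microglia groups, by CPM and by CPM per kb.

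**Figure D3:**
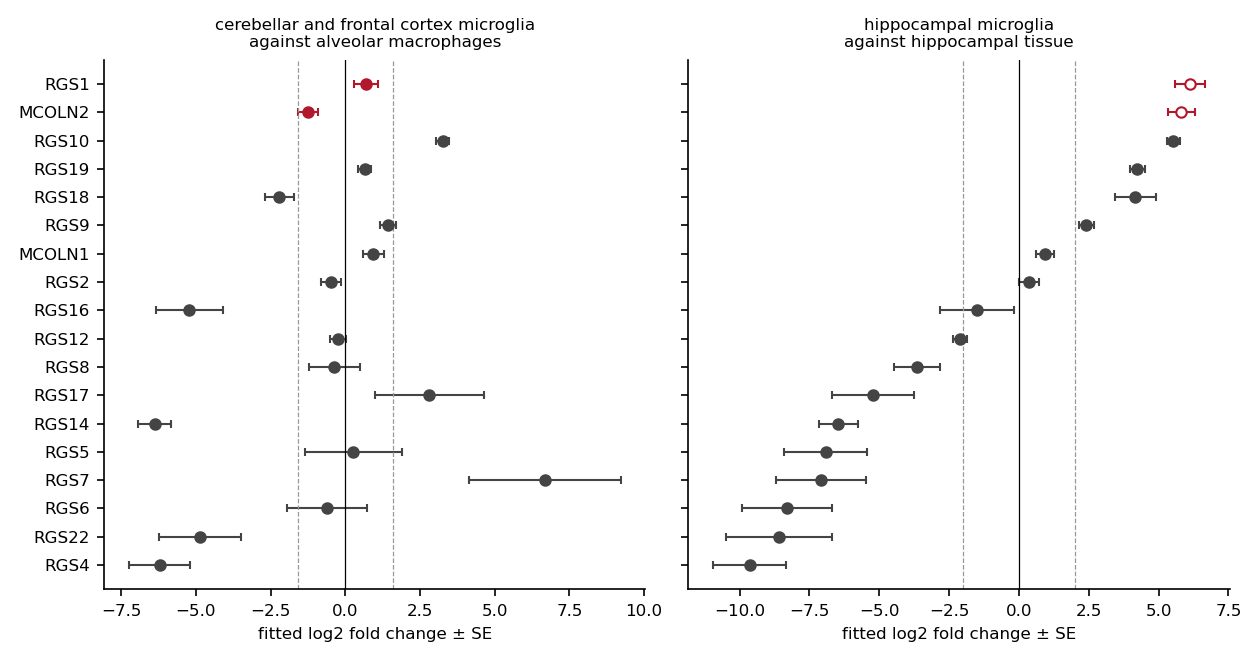
Fitted log2 fold changes ± SE of the tested RGS genes, MCOLN1 and MCOLN2 (rows) in cerebellar and frontal cortex microglia against alveolar macrophages (left) and in hippocampal microglia against hippocampal tissue (right), with positive values higher in microglia and dashed lines at 3-fold and 4-fold. RGS1 and MCOLN2 are in red, open where the comparison chose them; RGS10 is high in both panels (3.26 and 5.53), and RGS14 is low in both (−6.37 and −6.46).

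G alpha subunits of the Gi, Gq and other classes, and Gi-coupled receptors, were measured as lists of their own. In the F test between regions described further on, 0 of 10 and 0 of 11 passed, beside 2.03% of all genes. At that share the absence of calls says little about lists of this size. Of 10 G alpha genes tested, 3 were higher in cerebellar and frontal cortex microglia than in macrophages and 0 were lower, beside 12.8% and 9.43% of all genes (median 1.17, beside 0.07). They were GNAS, the stimulatory subunit, which is outside the Gi and Gq classes (7.33 ± 0.41), GNAI1 (3.74 ± 0.41) and GNAQ (1.86 ± 0.19). GNAZ had 1.93 ± 1.07 without passing. GNAS was at 11.7 ± 7.38 CPM in macrophages (SD, n = 3) against group means of 1750 to 2030 CPM in microglia. Against tissue, 3 of 10 were higher and 3 lower, beside 11.7% and 22.1% of all genes (median 0.05, beside −0.08), and the largest differences were −7.79 ± 1.01 for GNAZ, −6.30 ± 0.69 for GNAO1, the abundant neuronal subunit, 4.73 ± 0.22 for GNA15, a subunit of blood cells, and 4.54 ± 0.31 for GNAS. Of 11 Gi-coupled receptors, 6 were higher in microglia than in macrophages and 2 lower (median 2.74), beside the 12.8% and 9.43% of all genes. Against tissue 8 were higher and 2 lower (median 4.95), beside the 11.7% and 22.1% of all genes. The 4 with the largest differences from macrophages were ADORA3 (8.13 ± 0.29), P2RY12 (7.54 ± 0.49), CX3CR1 (6.79 ± 0.48) and CXCR4 (−5.42 ± 0.59), and those from tissue were S1PR1 (−9.16 ± 1.55), ADORA3 (5.64 ± 0.22), CX3CR1 (5.53 ± 0.40) and CCR1 (5.32 ± 0.22).

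The mucolipins differed from each other in their distribution. MCOLN1 was at 28.7 ± 7.96, 27.0 ± 5.9 and 32.6 ± 22.7 CPM in cerebellar, frontal cortex and hippocampal microglia (SD, n = 8 each), at 14.5 ± 1.22 CPM in macrophages (n = 3) and at 17.3 ± 1.93 CPM in tissue (n = 4). Its log2 fold changes of 0.94 ± 0.34 against macrophages and 0.92 ± 0.32 against tissue did not pass (adjusted p = 0.0181 and 0.0105 in edgeR), so the paralog with the higher level in microglia had no called excess there. MCOLN3, which is best known from hair cells and early endosomes, had no count in any of the 24 microglia samples. It was at 6.81 ± 2.78 CPM in macrophages and 0.164 ± 0.18 CPM in tissue, and it was too low to be tested. Per kilobase of exon, MCOLN1 stood above MCOLN2 in every microglia group (in the hippocampus 13.4 ± 9.34 against 2.79 ± 1.02 CPM per kb), whereas in macrophages the means were 5.94 ± 0.499 and 5.34 ± 1.16 CPM per kb, closer than their spread. The values of MCOLN2 per kilobase depend on its long noncoding exon sequence.

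The other endolysosomal channels and the kinase complex that makes PI(3,5)P2 differed from tissue by less than 4-fold. Against tissue, 0 of 11 members besides MCOLN2 passed both thresholds (median 0.64), beside 11.7% higher and 22.1% lower of all genes. The largest differences were 1.67 ± 0.15 for TPCN1, an endolysosomal ion channel, 1.39 ± 0.17 for OSTM1, the partner of the chloride exchanger CLCN7, 1.15 ± 0.14 for FIG4, of the kinase complex, and 0.92 for MCOLN1. The first 3 of these had an adjusted p under 0.01 and less than 4-fold difference. Against macrophages 1 of 12 was called, TPCN1 with 2.67 ± 0.17 (adjusted p = 1.07e-13 in edgeR), beside 12.8% higher and 9.43% lower of all genes. CLCN6 (1.57 ± 0.16) and FIG4 (1.03 ± 0.15) were under 3-fold, and MCOLN2 had the lowest value of the list, with a list median of 0.81. In the TFEB family of lysosomal transcription factors, TFEC rose by 5.13 ± 0.38 over tissue, while TFE3 (1.31), TFEB (1.14) and MITF (0.36) were under the fold threshold, and against macrophages 0 of 4 were called (median 0.62).

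The regions were then compared. Neither gene differed among cerebellar, frontal cortex and hippocampal microglia in the F test (adjusted p = 0.979 for RGS1 and 0.545 for MCOLN2 in edgeR), which called 2.03% of genes, 236 in all, and 85 when pig was a replicate block. The F test and the pairs with the hippocampus share hippocampal microglia samples with the selection of the genes. The 95% intervals of the pairwise log2 differences given here are those of the fit without pig as a block. For RGS1 they were −0.60 to 0.64 (cerebellum minus frontal cortex), −0.53 to 0.71 (cerebellum minus hippocampus) and −0.55 to 0.69 (frontal cortex minus hippocampus). For MCOLN2 they were −0.85 to 0.32, −1.02 to 0.15 and −0.76 to 0.41 in that order. Of the RGS genes, 3 of 16 passed the F test, namely RGS4, RGS6 and RGS9, and RGS9 had means of 30.9, 16.8 and 41.1 CPM in cerebellar, frontal cortex and hippocampal microglia (adjusted p = 0.000396). RGS4 and RGS6 are neuronal genes with group means under 4 CPM in microglia, highest in the frontal cortex. Of 5 neuron markers 1 passed, RBFOX3 (adjusted p = 0.00575), which was highest in the cerebellum (12.2 against 5.18 and 0.582 CPM). No member of the endolysosomal list passed, and in the TFEB family MITF did, with 60.2 ± 16.4 CPM in the cerebellum against 22.9 ± 6.61 and 26.3 ± 5.82 CPM (SD, n = 8 each, adjusted p = 4.67e-05).

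Within pigs, RGS1 was higher in cerebellar than in frontal cortex microglia in 6 of 6 animals. The pairs were 282 and 247 CPM in pig 12599, 202 and 163 CPM in pig 12750, and 106 and 92.7 CPM in pig 12758. They were 273 and 130 CPM in pig 12847, 302 and 198 CPM in pig 12891, and 214 and 190 CPM in pig 12902. The ratio ran from 1.12 to 2.11 with a median of 1.19. The mean difference was 0.42 in log2 CPM. The shared direction was noticed after the values were seen and is given as a description. In an edgeR fit of all samples that held pig as a replicate block, the difference was 0.37 ± 0.15 (SE) with an adjusted p of 0.19, which did not pass, and without the block it was 0.02 ± 0.30. The frontal cortex sample with the highest RGS1, that of pig 12720 with 462 CPM, has no cerebellar partner. Cerebellar and hippocampal microglia of the same pig differed in RGS1 in both directions, with 2 of 4 pigs higher in each.

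The directions of MCOLN2 within pigs are given as a description only, since neither gene passed the F test between regions. MCOLN2 was higher in frontal cortex than in cerebellar microglia in 4 of 6 pigs (mean difference −0.21 in log2 CPM, cerebellum minus frontal cortex). It was lower in cerebellar than in hippocampal microglia in 4 of 4 pigs, with ratios of 0.621 to 0.899. The hippocampal microglia samples had entered the selection of MCOLN2. Neither difference passed in edgeR. Cerebellum minus hippocampus was −0.44 ± 0.29 (SE, adjusted p = 0.419), and −0.38 ± 0.23 (adjusted p = 0.556) once pig was blocked. Cerebellum minus frontal cortex was −0.26 ± 0.29 (adjusted p = 0.672), and −0.23 ± 0.19 (adjusted p = 0.568) once pig was blocked. Pig 12758 had the lowest RGS1 of each region (106, 92.7 and 112 CPM), and its MCOLN2 was the highest of the frontal cortex group (30.4 CPM) and the second highest of the cerebellar and hippocampal groups (21.5 and 23.9 CPM).

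**Figure D4:**
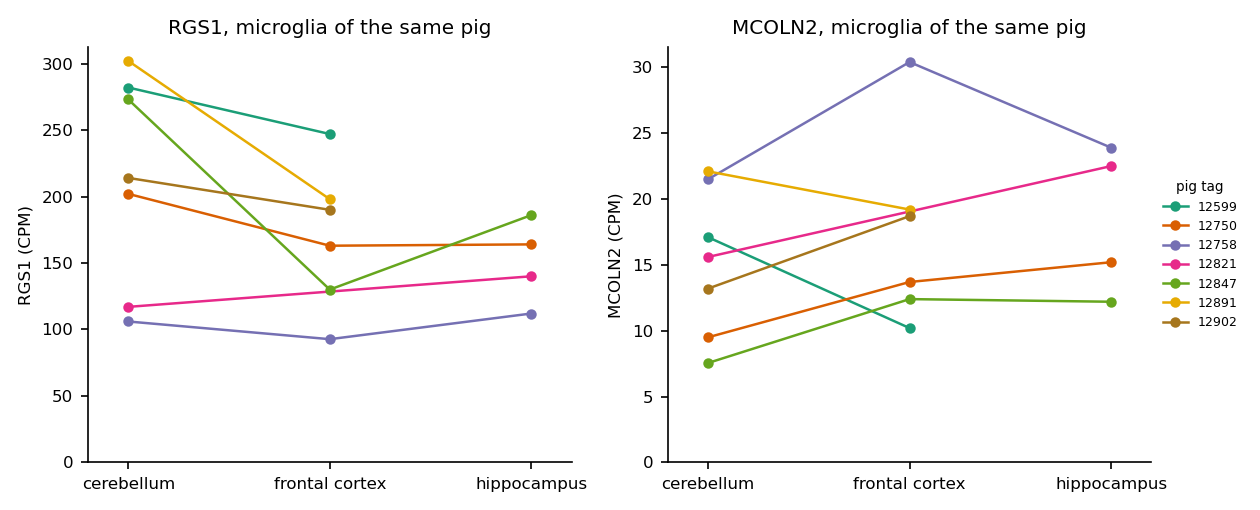
CPM of RGS1 (left) and MCOLN2 (right) in microglia of the 7 pigs with more than 1 region, with 1 line per pig and points where a sample exists (pig 12821 has none from frontal cortex). RGS1 falls from cerebellum to frontal cortex in 6 of 6 pigs, and MCOLN2 rises in 4 of 6.

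Over the 24 microglia samples, with each region's mean removed, the genes did not vary together. Pearson's r of log2 CPM was −0.199 and Spearman's rho −0.226, and r was −0.393 without the 2 samples farthest from the median of RGS1. These are descriptions, since the 24 samples came from 14 pigs and share library and depth effects. RGS1 varied from 92.7 to 462 CPM over all microglia and MCOLN2 from 7.55 to 34.4 CPM. Of 10077 tested genes with a symbol, those most like RGS1 included NFKBIA, the inhibitor of NF-κB and a member of the early inflammatory list below (r = 0.829), VCAM1, an adhesion molecule (r = 0.799), KLF9, a transcription factor (r = 0.778), and PAK1, a kinase (r = 0.745). Without the 2 samples farthest from the median these were 0.754, 0.764, 0.683 and 0.819. Those most like MCOLN2 were DOP1B (r = 0.75), SFMBT2 (r = 0.697), CCDC170 (r = 0.69), GARRE1 (r = 0.686) and CUL7 (r = 0.671). No gene named for RGS1 was among those named for MCOLN2, but lists this short from 10077 genes would seldom share a member by chance. The genes are the extremes of a search and no p is given.

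**Figure D5:**
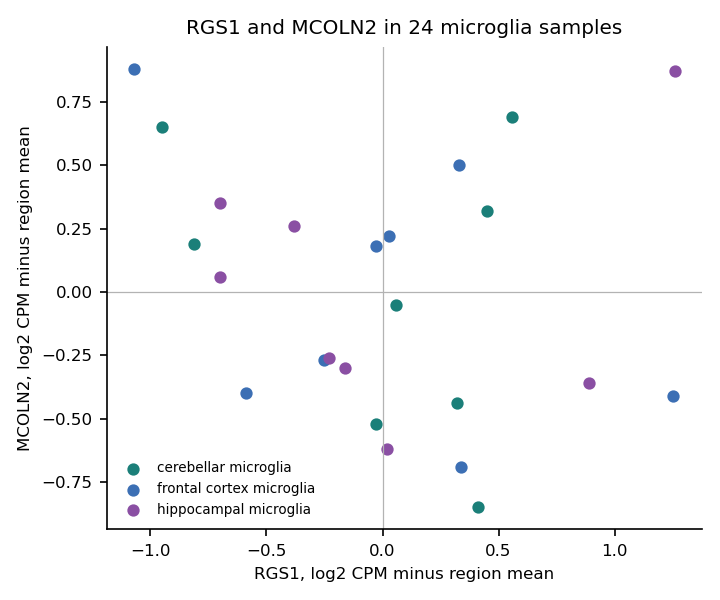
Deviation of RGS1 (horizontal) and MCOLN2 (vertical) from their region's mean in log2 CPM, with 1 point per microglia sample colored by region (n = 8 each). The points fill all 4 quadrants (r = −0.199), and the hippocampal sample of pig 12872 is high in both genes.

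Immediate early and early inflammatory genes, which rise quickly in handled cells, were measured beside these genes because sorted cells and whole tissue were prepared differently. Of 14 immediate early genes tested, 6 were higher in hippocampal microglia than in tissue and 2 were lower, beside 11.7% and 22.1% of all genes (median log2 fold change 1.94, beside −0.08). The largest differences were 5.43 ± 0.47 for IER3, −3.61 ± 0.70 for NR4A1, 3.14 ± 0.29 for IER2 and 2.60 ± 0.28 for JUNB. Of 7 early inflammatory genes 4 were higher, namely IL1A (5.22 ± 0.77), CCL3L1 (5.19 ± 1.53), CCL4 (3.80 ± 0.75) and NFKBIZ (3.65 ± 0.25), with a median of 3.65. The part of cell preparation in the excess of RGS1 and MCOLN2 over tissue was not tested.

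Against alveolar macrophages, which were also sorted, the same lists had medians of −0.86 and −1.21, and no member was called higher in microglia. Of all genes, 12.8% were called higher and 9.43% lower. Of the immediate early genes 4 were lower, NR4A1 (−3.24 ± 0.60), EGR2 (−3.09 ± 0.34), EGR3 (−2.29 ± 0.44) and EGR1 (−1.91 ± 0.32). Of the early inflammatory genes CD69 (−8.93 ± 1.37), an activation marker of lymphocytes, and IL1A (−1.75 ± 0.52) were lower, CCL3L1 (−2.83 ± 0.95) did not pass, and RHOB, a small GTPase, was the other way (1.22 ± 0.30, adjusted p = 0.000889 in edgeR) at less than 3-fold. Across regions JUN and EGR2 passed the F test (adjusted p = 0.00373 and 0.00066 in edgeR), and the mean of JUN was 304 ± 105 CPM in cerebellar microglia against 117 ± 63.4 CPM in frontal cortex microglia (SD, n = 8 each).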

How the data were processed

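RNA of 31 samples in 5 groups was sequenced by the authors as stranded total RNA libraries with paired-end reads, trimmed with BBtools, aligned to Sscrofa11.1 with Hisat2 and counted with StringTie. They deposited raw counts for 31907 Ensembl genes. Symbols came from the reference table for 15029 genes and from the study's tables for 383 more. RGS1, MCOLN2 and the gene lists were chosen with earlier results of these data known. The listed genes named are all measured RGS and MCOLN genes and, per other list and comparison, the 4 with the largest fitted difference. The study's filter, over 10 CPM throughout at least 1 group, left 11633 genes. After TMM scaling, edgeR 4.0.16 (quasi-likelihood, robust, R 4.3.3) was fitted as 1 model of 5 groups, with Benjamini-Hochberg adjustment and thresholds of 0.01 on the adjusted p, 3-fold against macrophages and 4-fold against tissue. CPM values were computed from the deposited counts, and log2 CPM used a prior count of 2. The methods were tested on simulated data. Of the 5 genes most like each of RGS1 and MCOLN2, 1 is not reported here. Likeness, sequences and per-kilobase levels were computed in Python 3.11.15.

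Samples with the same tag number came from the same pig. Deviations from group means correlated by 0.0791 on average over 25 same-pig pairs (−0.374 to 0.433) and by −0.00499 over 347 pairs of different pigs, and pig was therefore also fitted as a replicate block. Alternatives were limma-voom (limma 3.58.1), DESeq2 1.42.0, other scaling factors, filters and thresholds, fits of only the groups compared, and fits that omitted 1 sample at a time. Replicate libraries differed by at least 29.6 in chi-square per degree of freedom, far beyond sampling noise. Within a group every sample came from a different pig, so p-values rest on the spread between animals of a group. Fits without the block, and the permutation test against macrophages, treated the regions of the same pig as independent samples.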

Additional observations from a re-analysis of the deposited data

Results flagged for a closer look

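RGS1 in the frontal cortex microglia of pig 12720, at 462 CPM, lay far from the other 7 samples of its group, of which the next highest had 247 CPM. The gap took 0.582 of the group's range, above Dixon's critical value of 0.526 for 8 samples. It was the only such value in the 8 groups of 4 or more samples searched for the 2 genes, and chance flags about 1 in 20 groups. Without it the group mean of RGS1 was 181 ± 56.9 CPM (SD, n = 7).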

How the results depend on the processing

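RGS1 against macrophages stayed without a call in 12 alternatives (0.17 to 0.80 on the log2 scale) and in 31 fits that left out 1 sample (0.61 to 0.89). MCOLN2 kept its direction in all of these. It kept a p under 0.01 in 11 of 12, the exception being hippocampal microglia alone (−0.94). Each p was adjusted except that of the permutation test, and the 3-fold threshold was not applied here. Leaving out 1 sample gave −1.41 to −1.04. The adjusted p rose above 0.01 in 2 of 31 fits, without the macrophages of pig 12821 or pig 12984. The region F test called neither gene in any fit. The difference in RGS1 between cerebellar and frontal cortex microglia turned to −0.047 with library size only and to −0.021 with filterByExpr and with every gene that had a count, and ran from −0.136 to 0.235 with 1 sample left out. The difference between frontal cortex and hippocampal microglia turned to −0.292 when pig was a replicate block in edgeR and ran from −0.091 to 0.32 with 1 sample left out, and that between cerebellar and hippocampal microglia ran from −0.003 to 0.341. The tissue differences of both genes moved by less than 1 SD in every alternative. Blocking by pig moved neither RGS1 (0.174 against macrophages) nor MCOLN2 (−1.257) across the threshold of 0.01 on the adjusted p. The count of genes that differed among regions was 927 at an adjusted p under 0.05, 760 with DESeq2, 85 with the replicate block in edgeR, 141 with only microglia in the fit, and 154 to 335 with 1 sample left out. The test against the fold threshold gave 907 genes higher and 609 lower than in macrophages. With filterByExpr 2263 were lower than in macrophages, 2120 higher and 4963 lower than in tissue, and with every gene that had a count 2610, 2097 and 5771. The cause of these shifts was not tested, apart from the larger number of genes tested with the looser filters. Group mean CPM without TMM factors moved by less than 1 SD.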
